A study of Mus musculus with 8 samples.

Results

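The genes described here encode the chains of collagens, laminins and integrins, the main fibre, basement membrane and matrix receptor proteins of animal tissues. They were chosen by symbol alone (Col, Lama to Lamc, Itga and Itgb followed by a chain number or letter, with Itgam left out), which found 75 of the 15705 genes listed. Of these, 42 encode collagen chains, 11 laminin chains and 22 integrin chains. RNA was taken from mouse embryos at E18.5, from the LGE (lateral ganglionic eminence), where striatal projection neurons are born. The conditional knockouts (cKO, 4 libraries) carried Dlx1-Cre and Isl1 flx/flx, and the littermate controls (4 libraries) carried Isl1 flx/flx without Cre, so both groups share the floxed alleles of Isl1, a LIM-homeodomain transcription factor. Dlx1-Cre is active in ventral forebrain cells of the Dlx lineage, and since it was present in the cKO alone, Cre and the deletion cannot be told apart. The comparison asks which of these matrix genes differ in level in the LGE when Isl1 is deleted.

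Collagens are built from 3 alpha chains wound into a triple helix, and they differ in how the helices assemble. Fibrillar collagens form the banded fibres of connective tissue and, in the brain, of the meninges. Collagen IV forms the network of basement membranes, and collagen VI forms beaded microfilaments around cells. Laminins are cross-shaped trimers of an alpha, a beta and a gamma chain that polymerise in basement membranes, which in the embryonic brain line the pial surface and the blood vessels. Integrins are dimers of an alpha and a beta chain that span the cell membrane, bind these matrix proteins outside the cell and link them to the actin skeleton inside it. In the developing forebrain, integrins and laminins are known for anchoring the end feet of radial glia at the pial surface.

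The deposited values are adjusted read values per gene, rounded to whole numbers, whose sums lay between 23732455 and 24456923 per library. These sums follow from the authors' scaling, so the depth is unknown. An adjustment visible in the values reduced the spread between replicates, so SDs, SEs and p-values here are too small to an unknown degree. Isl1 itself had values of 4930, 5377, 5618 and 5971 in the libraries labelled cKO, against 3777, 3692, 4186 and 3517 in those labelled control (log2 fold change 0.53 ± 0.06 SE, limma adjusted p = 0.000338). Reads of any exon of Isl1 enter this value and the floxed exons are not named in the labels, so it does not check them, and the direction goes against a simple loss of transcript. In what follows, cKO and control mean the libraries so labelled. The LGE markers were abundant, with summed levels of 14 genes of 1139 to 1172 RPKM (reads scaled by library total and by transcript length) in cKO and 1029 to 1072 RPKM in control libraries. The 8 markers of neighbouring pallial neurons summed to 4.15 to 15.8 RPKM in cKO and 1.65 to 18.4 RPKM in control libraries, and cKO 4 and control 3 held the lowest sums of their groups. Of the LGE markers 6 rose and 1 fell (50% called, against 6.66% of all genes tested). Those that rose were Dlx1, Dlx2, Dlx5, Dlx6, Meis2 and Drd2, and Tac1 fell (-2.93, limma adjusted p = 2.19e-07). The other 7, among them Gad1 and Gad2, did not pass. The largest parts of the sum were Dlx1 (228 RPKM in cKO, 149 RPKM in control libraries) and Meis2 (226 and 180 RPKM). Of the pallial markers 0 passed by limma (0 also at an unadjusted p under 0.05 and 0 in the authors' deposited table). Of 5 platelet markers 1 has a row, Gp1bb, at 62.1 RPKM in cKO and 68.4 RPKM in control libraries. It did not pass (limma adjusted p = 0.139), though its cKO values all lay below its control values. Pf4, Ppbp, Gp9 and Gp6 have no row, so platelet content was not tested.

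All 75 genes passed the filter on low values, and 6 of them (8%) passed the test at an adjusted p of 0.05 (limma, Benjamini-Hochberg over 15698 genes). Over all genes tested, 6.66% passed, so the share among the matrix genes was near the background. Col6a1, Col25a1, Col9a2 and Col6a4 fell in the cKO (3.78% of all genes fell), and Col22a1 and Itgax rose (2.87% of all genes rose). Of the 42 collagen genes, 4 fell and 1 rose, while none of the 11 laminin genes and 1 of the 22 integrin genes passed. The median log2 fold change was 0.03 over the 75 genes and 0.01 over all genes tested. Another 14 of the 75 had an unadjusted p under 0.05 without passing, as did 1886 of all 15698 genes tested. That is the background for such counts in the families and lists below. The cKO and control values did not overlap in 13 of the 75 genes (17.3%), 7 higher and 6 lower in the cKO, against 12.7% of all genes tested. In bulk tissue, fewer cells of a type and less RNA per cell cannot be told apart.

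**Figure D1:**
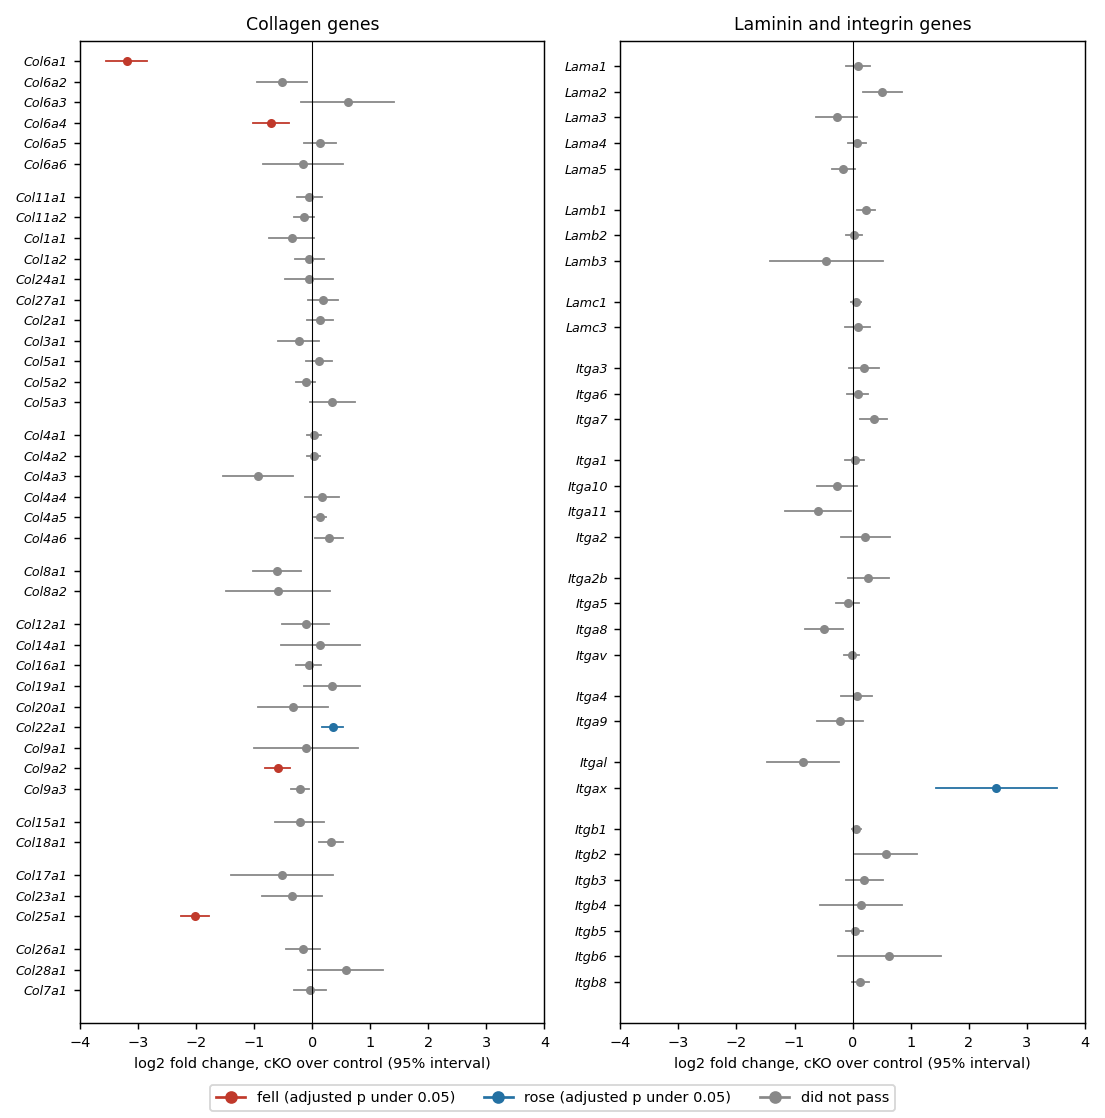
Log2 fold change, cKO over control, of 74 of the genes with its 95% interval from limma (4 libraries a group), collagens on the left and laminins and integrins on the right, grouped by kind of chain. Col6a1 at -3.19 and Col25a1 at -2.02 lie farthest to the left, Itgax at 2.48 lies farthest to the right with a wide interval, and most other points lie near 0.

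By level per length, the 75 genes spanned a wide range. In control libraries 6 of them averaged at least 10 RPKM and 43 averaged under 1 RPKM. The highest was Itgb1, the beta chain shared by most matrix-binding integrins, with 44.6 RPKM in cKO and 43.0 RPKM in control libraries. It was followed by the collagen IV chains Col4a1 and Col4a2, then Col9a3, Lamc1, Col25a1, Itgb5 and Col6a1. Among these 8, Col25a1 and Col6a1 were the genes whose levels differed between the groups beyond their spread.

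**Figure D2:**
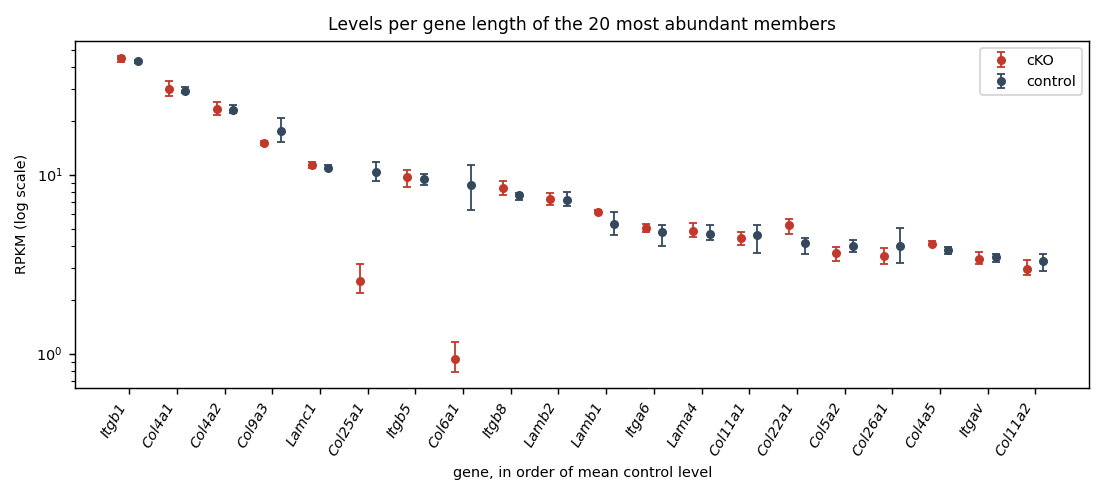
Level in RPKM (log scale) of the 20 genes with the highest mean in control libraries, in that order from left to right, with cKO beside control for each gene. Points are means of 4 libraries and bars run from the lowest to the highest library; the cKO points of Col25a1 and Col6a1 lie far below those of the control.

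Collagen VI is assembled from the chains of Col6a1 and Col6a2 with a further chain, usually that of Col6a3. Col6a1 (chr10:76708792-76726168, minus strand, GRCm38) had values of 112, 91, 78 and 77 in cKO libraries, against 1073, 615, 802 and 844 in control libraries. Every cKO library lay far below every control library. The mean was 89.5 ± 16.3 in cKO and 833.5 ± 188 in control libraries (SD, n = 4 each), 9.31-fold lower in the cKO. The log2 fold change was -3.19 ± 0.16 (SE, 95% interval -3.55 to -2.84), with a limma adjusted p of 6.04e-07. Per length, its level was 0.928 ± 0.172 RPKM in cKO and 8.70 ± 2.08 RPKM in control libraries.

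Col6a2 (chr10:76595762-76623630, minus strand), the partner chain, lies next to Col6a1 on the same strand, 85.2 kb away. Its values were 24, 29, 24 and 32 in cKO libraries, against 51, 43, 30 and 36 in control libraries. The groups overlapped, and the log2 fold change of -0.52 ± 0.20 (SE) did not pass the test (limma adjusted p = 0.167, 95% interval -0.95 to -0.09). Col6a3, the chain with the long array of von Willebrand factor A domains, had 49, 60, 25 and 66 in cKO libraries, against 23, 61, 19 and 32 in control libraries. It too overlapped between the groups (0.61 ± 0.37 SE, limma adjusted p = 0.427). Per length, cKO libraries held 0.928 RPKM of Col6a1, 0.187 RPKM of Col6a2 and 0.190 RPKM of Col6a3. Control libraries held 8.70 RPKM of Col6a1, 0.276 RPKM of Col6a2 and 0.129 RPKM of Col6a3, so the 3 partners stood far apart there and closer together in the cKO. The other neighbours of Col6a1 in the table, among them Pcbp3 at 35.7 kb (-0.15, limma adjusted p = 0.121) and Col18a1 at 326 kb (0.32, limma adjusted p = 0.0668), did not pass.

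The stretches just upstream of Col6a1 and Col6a2 are shown because these neighbouring partner chains differed in response, and a window of Col25a1 because it had the second-largest fall. The Col25a1 window precedes a RefSeq start that lies inside the gene's GENCODE span, not the outer end of that span. They are RefSeq promoter sequence of GRCm38.p6, and capitals mark the letters TAAT on either strand (ATTA on the other), the core that homeodomain proteins are known to bind. For Col6a1 (chr10:76726169-76726294, minus strand) the 126 bases of the 250-base window that lie outside annotated exons are shown. For Col6a2 (chr10:76623631-76623880, minus strand) and Col25a1 (chr3:130180595-130180844, plus strand) all 250 bases are shown.
Col6a1: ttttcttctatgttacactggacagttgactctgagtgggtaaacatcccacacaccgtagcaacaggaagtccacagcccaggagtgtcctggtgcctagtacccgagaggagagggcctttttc
Col6a2: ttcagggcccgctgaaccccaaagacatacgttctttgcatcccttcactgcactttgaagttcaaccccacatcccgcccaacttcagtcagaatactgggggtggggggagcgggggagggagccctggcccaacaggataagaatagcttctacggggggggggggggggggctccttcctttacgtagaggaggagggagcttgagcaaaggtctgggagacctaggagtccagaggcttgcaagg
Col25a1: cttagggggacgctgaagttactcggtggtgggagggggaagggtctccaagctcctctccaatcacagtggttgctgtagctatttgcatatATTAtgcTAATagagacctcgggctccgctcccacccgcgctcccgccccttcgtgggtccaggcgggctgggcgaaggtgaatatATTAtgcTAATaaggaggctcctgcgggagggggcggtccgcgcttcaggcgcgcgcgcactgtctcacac
The letters occur 0 times in the windows of Col6a1 and Col6a2. In Col25a1 they occur 4 times, beginning 157, 150, 71 and 64 bases before the RefSeq start, within a 16-base run, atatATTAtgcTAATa, present 2 times with starts 86 bases apart. The letters occur in 54.9% of 32851 such windows, and at least 4 times in 9.62%. Of the 75 genes, 54 have a window, and 33.3% of their 60 windows hold the letters. These are matches of letters and not measured binding.

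A further 3 collagen VI chains lie side by side on chromosome 9. Col6a4 (chr9:105989454-106096783, minus strand) had values of 91, 76, 83 and 69 in cKO libraries, against 161, 110, 117 and 138 in control libraries. The groups did not overlap, and the log2 fold change was -0.71 ± 0.14 (SE, limma adjusted p = 0.00969). Its neighbour Col6a5 had 87, 95, 92 and 74 in cKO libraries, against 91, 70, 78 and 79 in control libraries, and did not pass (0.13 ± 0.13 SE, limma adjusted p = 0.651). Col6a6 stayed between 5 and 9 in cKO and between 5 and 11 in control libraries (limma adjusted p = 0.853). In the mouse the chains of these 3 genes can take the place of the Col6a3 chain. Summed over the 6 genes, collagen VI stood at 2.17 ± 0.216 RPKM in cKO and 10.2 ± 2.25 RPKM in control libraries (SD, n = 4 each), and 8.70 RPKM of that control sum was Col6a1.

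Fibrillar chains are made by meningeal fibroblasts, a cell type that also makes collagen VI, and none of the 11 fibrillar genes passed the test, with log2 fold changes between -0.35 and 0.35. Col1a1, a chain of collagen I, had values of 28, 21, 19 and 27 in cKO libraries, against 30, 29, 31 and 31 in control libraries. These groups did not overlap, but the change of -0.35 ± 0.18 (SE) did not pass (limma adjusted p = 0.326). Col1a2, its partner, had 160, 148, 118 and 156 in cKO libraries, against 168, 148, 135 and 150 in control libraries (-0.05 ± 0.12 SE, limma adjusted p = 0.871). Col3a1, which forms collagen III in the same fibres, had 44, 52, 55 and 38 in cKO libraries, against 65, 53, 48 and 56 in control libraries (-0.23 ± 0.16 SE, limma adjusted p = 0.489). The summed level of the 11 fibrillar genes was 16.3 ± 0.807 RPKM in cKO and 16.9 ± 1.29 RPKM in control libraries (SD, n = 4 each). The largest parts of the control sum were Col11a1 (4.6 RPKM), Col5a2 (4.0 RPKM) and Col11a2 (3.3 RPKM). Col1a1 (0.21 RPKM), Col1a2 (1.19 RPKM) and Col3a1 (0.41 RPKM) were a small part, so the sum says little about them. Of the meningeal fibroblast markers, 12 of 17 have a row, 0 of them passed by limma in either direction (2 had an unadjusted p under 0.05, and 1 was called higher in the authors' deposited table), and their summed level was 35.7 to 39.2 RPKM in cKO and 35.1 to 36.6 RPKM in control libraries. Most of that sum was Igf2 (15.9 RPKM in cKO and 14.2 RPKM in control libraries), Bgn (7.12 and 7.36 RPKM) and Fbln1 (5.60 and 5.88 RPKM). The sum therefore mainly follows these genes and gives no level of meningeal fibroblasts. Dcn, which encodes the collagen-binding proteoglycan decorin and marks such fibroblasts, was near 0, with 0.0098 RPKM in cKO and 0.0196 RPKM in control libraries.

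**Figure D3:**
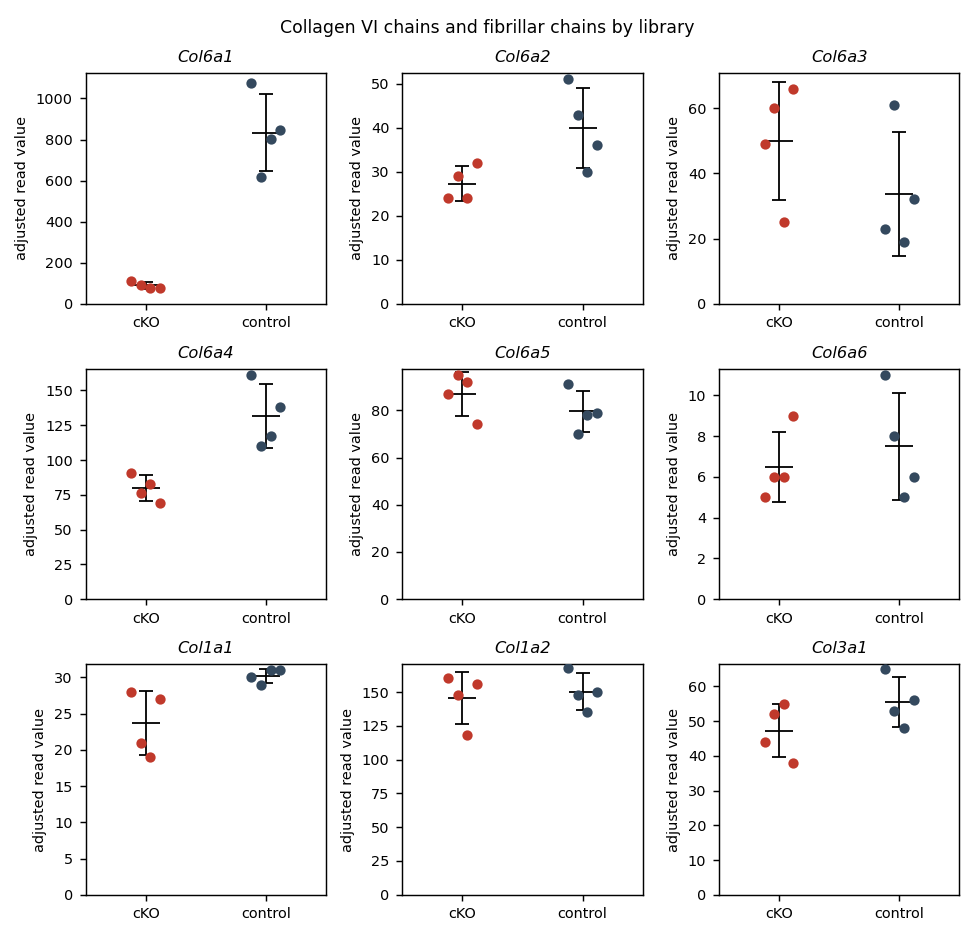
Adjusted read values by library of the 6 collagen VI genes and of Col1a1, Col1a2 and Col3a1, with cKO on the left and control on the right of each panel. Points are libraries and bars are the mean ± SD (n = 4); the groups are apart in Col6a1, Col6a4 and, narrowly, Col1a1, and overlap in the other 6 panels.

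To ask whether Col6a1 differed in response from other chains, the log2 value of a second chain was subtracted from that of Col6a1 within each library. Against Col6a2, the difference averaged 1.67 in cKO and 4.35 in control libraries, a shift of -2.67 ± 0.27 (SE). Against Col6a3, it averaged 0.90 in cKO and 4.70 in control libraries, a shift of -3.80 ± 0.58 (SE). Both shifts separated the groups without overlap. Against the fibrillar chains, the shift was -2.84 ± 0.21 for Col1a1, -3.14 ± 0.18 for Col1a2 and -2.96 ± 0.21 for Col3a1 (SE), again without overlap. For each of these 5 pairs the two-sided exact permutation test over 70 assignments gave p = 0.0286, the smallest it can give, and 0.0343 after adjustment over the 6 pairs compared. For the sixth pair, Col6a2 against Col6a3, the shift of -1.13 ± 0.42 (SE) did not pass (exact permutation p = 0.0571, also after adjustment) and the groups overlapped. The pairs that share Col6a1 are not independent of each other. Col6a1 alone set the groups apart (at most 112 in cKO and at least 615 in control libraries), so their p-values largely repeat its own fall. They say little about the second chain of each pair.

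**Figure D4:**
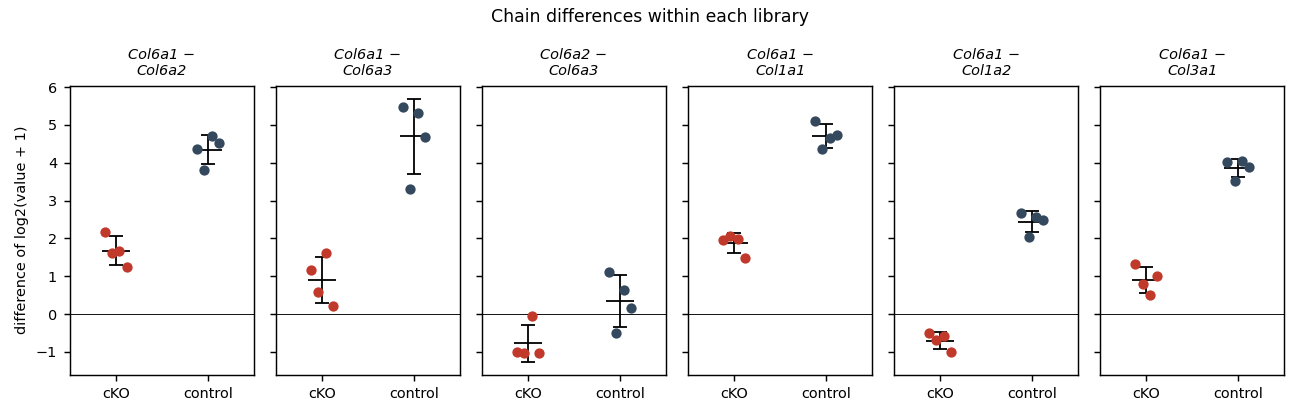
Difference of log2(value + 1) between the 2 chains named above each panel, by library, with cKO on the left and control on the right. Points are libraries and bars are the mean ± SD (n = 4); the groups are apart in the 5 panels with Col6a1 and overlap for Col6a2 minus Col6a3.

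Among collagens that span the membrane, Col25a1 fell. It encodes a neuronal transmembrane collagen known for the innervation of muscle by motor axons and as a component of amyloid plaques. Col25a1 (chr3:130131501-130599877, plus strand) had values of 576, 397, 464 and 419 in cKO libraries, against 1989, 1687, 1708 and 2110 in control libraries. The lowest control library was well above the highest cKO library. The mean was 464 ± 79.7 in cKO and 1873.5 ± 209 in control libraries (SD, n = 4 each), 4.04-fold lower in the cKO, with a log2 fold change of -2.02 ± 0.11 (SE, limma adjusted p = 9.42e-07). Per length, it stood at 2.56 RPKM in cKO and 10.4 RPKM in control libraries. The other transmembrane chains of the table were low and did not pass, Col23a1 at -0.34 (limma adjusted p = 0.494) and Col17a1, the hemidesmosome collagen, at -0.52 (limma adjusted p = 0.55). The neighbours Sec24b (0.05, limma adjusted p = 0.572) and Ostc (0.02, limma adjusted p = 0.884) did not pass.

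Fibril-associated collagens sit on the surface of other fibres, and 1 of 9 fell and 1 rose (22.2% called, against 6.66% of all genes tested). Collagen IX is a trimer of the chains of Col9a1, Col9a2 and Col9a3. Col9a2 (chr4:121039385-121055322, plus strand) had 121, 125, 139 and 151 in cKO libraries, against 216, 214, 187 and 195 in control libraries. No cKO library reached the lowest control library, and the log2 fold change was -0.60 ± 0.10 (SE, limma adjusted p = 0.00267). Its partners did not pass. Col9a3, with 1030, 1009, 1062 and 1047 in cKO libraries against 1403, 1175, 1056 and 1207 in control libraries, overlapped in a single control library (-0.22 ± 0.07 SE, limma adjusted p = 0.113), and it passed without control 3 (-0.28, limma adjusted p = 0.0294). Col9a3 overlaps Tcfl5 in the annotation. Col9a1 was low, at 4 to 13 in cKO and 5 to 14 in control libraries (-0.12 ± 0.41 SE, limma adjusted p = 0.923). In control libraries the 3 chains stood at 0.110 RPKM for Col9a1, 3.06 RPKM for Col9a2 and 17.6 RPKM for Col9a3.

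Collagen IX is best known from cartilage, where Acan encodes the main proteoglycan, and Acan was near 0 with 0.0238 RPKM in cKO and 0.0451 RPKM in control libraries. Of the 8 cartilage and bone markers 6 have a row, and 1 of them rose (16.7%, against 6.66% of all genes tested). It was Sox9, a transcription factor of cartilage and also of neural progenitors (0.38, limma adjusted p = 0.00502, and 0.0543 without control 3 and cKO 4). The summed level of these 6 was 39.2 to 42.3 RPKM in cKO and 27.1 to 36.1 RPKM in control libraries. Nearly all of it was Sox9 (39.5 RPKM in cKO and 30.7 RPKM in control libraries), so the sum gives no level of cartilage, and its part in the collagen IX values was not tested. Col22a1 (chr15:71795795-72034227, minus strand), a collagen of tissue junctions, had 829, 747, 690 and 847 in cKO libraries, against 525, 644, 660 and 616 in control libraries. The groups lay close together without overlap, and the rise of 0.35 ± 0.08 (SE) passed by limma (adjusted p = 0.0289). That call rested on single libraries: the limma adjusted p for Col22a1 was 0.062 without cKO 1, 0.0585 without cKO 2, 0.0939 without cKO 4, 0.0585 without control 1 and 0.0664 without control 4. Its neighbour Kcnk9, 467 kb away, fell (-2.73 ± 0.34 SE, limma adjusted p = 0.000477), and Fam135b on the other side did not pass (-0.25, limma adjusted p = 0.264).

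**Figure D5:**
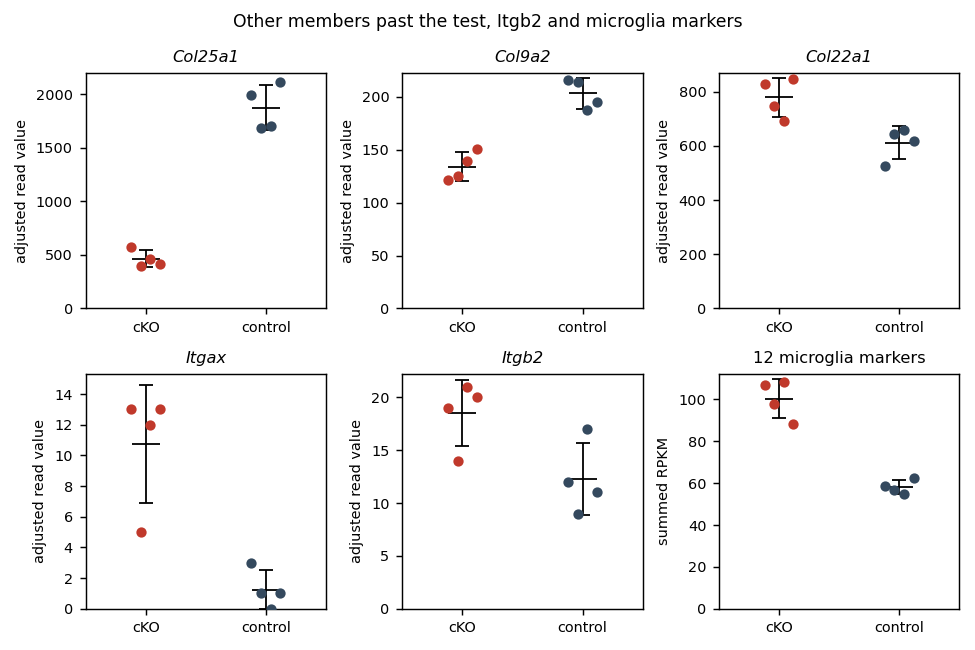
Adjusted read values by library of Col25a1, Col9a2, Col22a1, Itgax and Itgb2, and the summed RPKM of 12 microglia markers, with cKO on the left and control on the right. Points are libraries and bars are the mean ± SD (n = 4); Col25a1 and Col9a2 lie lower in the cKO, and Col22a1, Itgax and the microglia sum lie higher.

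Basement membrane chains were among the most abundant of the 75 genes, and none passed. Col4a1, with Col4a2 the main collagen IV of vessels, had 4662, 4394, 4808 and 5426 in cKO libraries, against 4883, 4633, 4773 and 4557 in control libraries. The groups overlapped, and the interval of the change ran from -0.10 to 0.15 on the log2 scale (limma adjusted p = 0.842). Col4a2, which lies head to head with it on chromosome 8 and overlaps it by 22 bases in the annotation, changed by 0.03 ± 0.05 (SE, limma adjusted p = 0.849). Summed over its 6 genes, collagen IV stood at 58.7 ± 4.17 RPKM in cKO and 57.4 ± 2.49 RPKM in control libraries (SD, n = 4 each). Col4a3, a low chain known from kidney, had 15, 8, 20 and 18 in cKO libraries, against 31, 22, 34 and 29 in control libraries. These groups did not overlap and limma did not call it (-0.94 ± 0.28 SE, adjusted p = 0.0718), while the authors' deposited table gave an adjusted p of 0.00198. Its head-to-head partner Col4a4, with a gap of 71 bases, did not pass (0.16, limma adjusted p = 0.571).

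Endothelial and mural cells make most vascular basement membrane, and 0 of 10 endothelial and 0 of 12 mural markers passed by limma (1 endothelial and 0 mural markers had an unadjusted p under 0.05, and the authors' deposited table called none). Endothelial markers summed to 68.3 to 84.5 RPKM in cKO and 69.0 to 78.2 RPKM in control libraries, and mural markers to 58.9 to 65.5 RPKM in cKO and 58.3 to 61.3 RPKM in control libraries. Col18a1, whose protein yields endostatin, was at 0.32 ± 0.09 (SE, limma adjusted p = 0.0668) with 222 to 240 in cKO and 158 to 210 in control libraries. The groups did not overlap, and it passed without control 2 (limma adjusted p = 0.0396). It overlaps Slc19a1 in the annotation. Its relative Col15a1 was at -0.22 (limma adjusted p = 0.6).

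Of the 11 laminin chains, 8 had a log2 fold change above 0 and 3 below. By limma 0 passed, 2 had an unadjusted p under 0.05, and 1 was called in the authors' deposited table. That was Lama2, an alpha chain made by muscle and by glia, with 221, 160, 173 and 150 in cKO libraries against 122, 94, 145 and 131 in control libraries. Its groups did not overlap, and the log2 fold change was 0.52 ± 0.15 (SE, limma adjusted p = 0.0713), with an adjusted p of 0.0101 in the authors' deposited table. Lamb1, the beta chain of the early embryonic and the vascular laminins, had 876, 861, 853 and 893 in cKO libraries, against 845, 652, 762 and 708 in control libraries. It too did not overlap and missed the threshold (0.24 ± 0.07 SE, limma adjusted p = 0.0741), and without control 1 it passed (limma adjusted p = 0.0124). Lamc1, the gamma chain of most laminins, was at 0.06 ± 0.04 (SE, limma adjusted p = 0.486), with 11.3 RPKM in cKO and 10.9 RPKM in control libraries.

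The vascular alpha chain Lama4 was at 0.08 ± 0.07 (SE, limma adjusted p = 0.65), Lama5 at -0.16 ± 0.09 (SE, limma adjusted p = 0.38), and Lama1, of the pial membrane, at 0.09 ± 0.09 (SE, limma adjusted p = 0.673). Lamb2 was at 0.03 ± 0.06 (SE, limma adjusted p = 0.862). The epithelial chains Lama3 at -0.27 (limma adjusted p = 0.414) and Lamb3 at -0.46 (limma adjusted p = 0.652) did not pass. The summed level of beta chains was 13.6 ± 0.575 RPKM in cKO and 12.6 ± 1.17 RPKM in control libraries (SD, n = 4 each).

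Integrin receptors of collagen and laminin did not pass either. Itgb1, the common beta chain, had 4633, 4528, 4319 and 4689 in cKO libraries, against 4342, 4295, 4461 and 4309 in control libraries. The groups overlapped, and the interval of the change ran from -0.02 to 0.14 on the log2 scale (limma adjusted p = 0.399). The laminin-binding chains Itga6 (0.09 ± 0.09 SE, limma adjusted p = 0.663), Itga3 (0.19 ± 0.12 SE, limma adjusted p = 0.434) and Itga7 (0.36 ± 0.10 SE, limma adjusted p = 0.0643) had no call. Itga6 lies beside the Dlx1 and Dlx2 locus. Itga7 had 226, 208, 226 and 220 in cKO libraries, against 139, 194, 174 and 182 in control libraries, without overlap, and the authors' deposited table called it (adjusted p = 0.0346). Without control 2 limma called Itga7 too (0.42, adjusted p = 0.0408).

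Of the collagen-binding chains Itga1, Itga2, Itga10 and Itga11, 0 of 4 passed by limma (1 had an unadjusted p under 0.05, and the authors' deposited table called none). Itga11, a receptor for fibrillar collagen on fibroblasts, was the lowest of them at -0.60 ± 0.26 (SE, limma adjusted p = 0.234). Of the chains that bind the RGD motif, Itga8 had 75, 62, 72 and 56 in cKO libraries, against 104, 93, 73 and 106 in control libraries, overlapping in a single pair of libraries (-0.49 ± 0.15 SE, limma adjusted p = 0.0811, and 0.0187 in the authors' deposited table). Without control 3, Itga8 passed (-0.61, limma adjusted p = 0.0301). Itgav, which pairs with several beta chains, was at -0.02 ± 0.06 (SE, limma adjusted p = 0.931). Its partners Itgb5 at 0.03 (limma adjusted p = 0.855) and Itgb8 at 0.14 (limma adjusted p = 0.336), which activates TGF-beta in the brain, did not pass.

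The single call among integrins was a leukocyte chain at a very low level. Itgax (chr7:128129547-128150657, plus strand), the CD11c chain of microglia and dendritic cells, had 13, 5, 12 and 13 in cKO libraries, against 3, 1, 0 and 1 in control libraries. All cKO libraries were above all control libraries, at levels of 0.110 RPKM in cKO and 0.0130 RPKM in control libraries, the lowest control level of the 75 genes. The log2 fold change was 2.48 ± 0.48 (SE, limma adjusted p = 0.00818), and it was lost when control 3 and cKO 4 were left out together (2.03, limma adjusted p = 0.0597). At so low a level the size of the Itgax change depended on the scale. It was 0.87 with an offset of 10 and 0.88 with RPKM columns, both past the limma threshold, and 2.95 in the authors' deposited table. Its partner Itgb2, the beta chain of leukocytes, had 19, 14, 21 and 20 in cKO libraries, against 12, 9, 17 and 11 in control libraries, and did not pass (0.58 ± 0.25 SE, limma adjusted p = 0.229). Itgal, the alpha chain of LFA-1, had 10, 7, 19 and 11 in cKO libraries, against 24, 18, 19 and 23 in control libraries (-0.86 ± 0.28 SE, limma adjusted p = 0.108, and 0.0305 in the authors' deposited table), and it passed without cKO 3 (-1.10, limma adjusted p = 0.0264). Itgam, which the symbol rule left out, is the next gene to Itgax on chromosome 7 and rose by 0.50 ± 0.12 (SE, limma adjusted p = 0.0288). Pycard, 136 kb from Itgax, rose by 0.92 ± 0.25 (SE, limma adjusted p = 0.0478), while Trim72 between them did not pass (0.36, limma adjusted p = 0.747).

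Microglia markers moved with Itgax. Of 12 such markers 10 rose and 0 fell (limma), or 83.3% called, against 6.66% of all genes tested. Their median log2 fold change was 0.80, and their summed level was 88.5 to 108 RPKM in cKO and 54.6 to 62.5 RPKM in control libraries, with none at 0. Csf1r, the receptor microglia need to survive, rose by 0.73 (limma adjusted p = 0.000133). The part of the microglia markers in the Itgax result was not tested.

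Other genes of the matrix and of its receptors were read from further lists. Of 22 other matrix proteins, 2 rose and 2 fell (18.2% called, against 6.66% of all genes tested). Reln, the secreted guidance protein of cortical layering, fell to 1962, 1540, 1846 and 1330 in cKO libraries, against 4597, 3750, 3743 and 4760 in control libraries (-1.34 ± 0.12 SE, limma adjusted p = 3.22e-05). Fbn2, a fibrillin, fell by 0.63 (limma adjusted p = 0.00527), while Tnr, a tenascin of the perineuronal matrix, rose by 0.55 (limma adjusted p = 0.00773) and Eln, elastin, by 0.41 (limma adjusted p = 0.0283). Of 22 genes for making and processing collagen, 1 passed (4.55%, against 6.66% of all genes tested). It was Bmp1, the procollagen C-proteinase (-0.15, limma adjusted p = 0.0317). The calls of Eln and Bmp1 were narrow. Eln lost its call without cKO 1, cKO 2, control 2 or control 3, and Bmp1 without any of the libraries other than control 3, with limma adjusted p-values over the alternatives fitted by limma of up to 0.0883 for Eln and 0.116 for Bmp1. The authors' deposited table gave Bmp1 an adjusted p of 0.265 and called 1 other gene of the collagen-processing list, Colgalt2. Colgalt2 was higher in the cKO (adjusted p = 0.0161 there), while limma did not call it (0.47, adjusted p = 0.0647). In that list 6 uncalled genes had an unadjusted p under 0.05 by limma. Tnr lost its call (limma adjusted p = 0.0847) without control 3 and cKO 4 together.

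Of 21 integrin adaptors and kinases, 2 rose and 2 fell (19.0% called, against 6.66% of all genes tested). Ptk2b, the calcium-sensitive relative of focal adhesion kinase, fell to 72, 70, 92 and 75 in cKO libraries, against 357, 239, 281 and 274 in control libraries (-1.88 ± 0.13 SE, limma adjusted p = 5.23e-06). Its groups were far apart. Itgb1bp1, which binds the tail of the beta 1 chain, fell by 0.31 (limma adjusted p = 0.00739), while Parvg, a parvin of blood cells, rose by 0.85 (limma adjusted p = 0.00561) and Fermt2, the kindlin of most tissues, by 0.15 (limma adjusted p = 0.043). Fermt2 kept that call without cKO 4 and lost it without any of the other 7 libraries, with a limma adjusted p of up to 0.134 over the alternatives fitted by limma and an adjusted p of 0.254 in the authors' deposited table. Itgb1bp1 lost its call without control 3 and cKO 4 together (limma adjusted p = 0.0774). Of 16 matrix proteases and inhibitors, 2 fell and 0 rose (12.5% called, against 6.66% of all genes tested). They were the inhibitor Timp2 (-0.34, limma adjusted p = 8.47e-05) and the protease Mmp17 (-0.38, limma adjusted p = 0.00297). Of 14 other receptors for collagen or laminin, such as dystroglycan and discoidin receptors, 0 passed by limma and 0 in the authors' deposited table, and 3 had an unadjusted p under 0.05.

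Of the 75 genes, 12 (16%) were called in the authors' deposited table at an adjusted p under 0.05, 4 higher and 8 lower in the cKO, against 6.55% of all genes listed there. These 12 include all 6 called by limma. The other 6 were Col4a3, Col8a1, Itga7, Itga8, Itgal and Lama2, named after their values were seen. Col8a1, a short-chain collagen of vessel walls, had 27, 27, 30 and 40 in cKO libraries, against 54, 55, 37 and 45 in control libraries (-0.61 ± 0.19 SE, limma adjusted p = 0.0856, and 0.0125 in the authors' deposited table). Without control 3 and cKO 4 together it passed (-0.85, limma adjusted p = 0.0269).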

How the data were processed

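Poly(A) RNA of 4 cKO and 4 control LGE samples was sequenced as single reads of 85 bp from a directional kit, per the labels' protocols. Groups come from the sample titles. STAR, featureCounts and edgeR were run by the authors with build mm10, per the submitters' processing notes. No source used here gives their versions or how strand was counted, so genes that overlap another may share reads. The deposited columns named as raw hold a score, not counts: adjusted values rounded to whole numbers, with upper quartiles of 1624 to 1635. Among 5711 genes with a mean above 1000, 1 direction within the groups had a singular value of 0.000241, against 0.0435 for the next, the trace of a removed factor, read from the values. Depth is therefore unknown, and neither a count model nor a counting interval was used. Levels per length come from the deposited RPKM columns. The log2 fold changes and adjusted p-values that the authors deposited served as an alternative. Their fold change column carries the name of control against knockout and the sign of knockout over control.

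A count test had been planned for counts and limma for other units, and limma applied. Values were taken as log2(value + 1), a scale that understates the change of low genes. The filter was a value of 1 or more in at least 4 libraries (15698 genes, with 7 left out), and these were tested with limma 3.58.1 (mean trend) in R 4.3.3, adjusted by Benjamini-Hochberg at 0.05. The 6 chain pairs were compared by two-sided exact permutation, which takes libraries as exchangeable, and the removed factor breaks this, so those p-values may be too small. The controls were littermates, but the labels give neither the litter nor the sex of each embryo. Litter and sex could therefore not enter the tests, and their effect on the p-values is unknown. Genes named are the collagen VI chains, Col1a1, Col1a2, Col3a1, Col4a1, Col4a2, all genes of the 75 that passed, their partner chains, Itga6, and up to 4 with the smallest p of each other list. The genes and lists were chosen with earlier results of these data known, and genes outside the rule were named after their values were seen, among them those called by the authors' deposited table alone, values without overlap and neighbours. The main fit was planned without a block. Same-numbered replicates did not deviate together, though the removed factor can alter such a comparison. Coordinates are GENCODE on GRCm38, where all 75 symbols were found. The symbols Itgae, Itgad, Itgb7, Col13a1 and Col10a1 were not analysed here, and 1 of the 75 genes is counted but not reported singly. Simulated data with 1 direction removed were used to test the procedure, and there 12.5% of the calls were false, above the nominal threshold of 0.05. This bears on all calls here to an unknown degree, and those near 0.05 are the least sure. Alternatives covered scaling, filter, offset, trend, columns, a replicate block and left-out libraries.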

Additional observations from a re-analysis of the deposited data

Results flagged for a closer look

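In 7 of 150 groups of 4 libraries, 1 library stood apart from the other 3 by Dixon's gap criterion, and chance gives about 1 in 20. Among cKO libraries, cKO 1 had a Col16a1 value of 279, above 242 to 244 in the other 3. The Col28a1 value was 41 in cKO 4 and 17 to 20 in the others. For Itgax, cKO 2 was low at 5, against 12 to 13. Among control libraries, Col2a1 was 185 in control 1, against 148 to 153 in the others. Lama3 was low in control 1 at 73, against 105 to 109. Control 3 was high in Itga4, at 323 against 254 to 261, and in Lama4, at 767 against 637 to 659. Of these genes, Itgax alone passed the test between groups.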

How the results depend on the processing

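Counts and genes were computed again under 19 alternatives (18 for genes with a mean under 50, which a stricter filter left out) and the chain pairs under 11, and no result was reversed. Col6a1, Col25a1, Col6a4 and Col9a2 kept their calls in all of them, with Col6a1 between -3.06 and -3.33. Col6a4 came near the threshold, with a limma adjusted p of up to 0.0491. Of 123 named genes, 98 kept the same call throughout. Over 2302 such gene results, 43 lost and 33 gained a call, and 34 uncalled results in 20 genes changed sign. The whole table held 1045 calls, 610 without control 3 and cKO 4 together, and 659 (without control 4) to 959 when leaving out 1 library. The genes of the 75 that rose numbered 2, and became 1 with RPKM columns, 1 with a mean of at least 50 (Itgax not tested), 1 without the mean trend, 4 in the authors' deposited table, 0 without control 3 and cKO 4, and 1 to 4 when leaving out 1 library. Those that fell numbered 4, and 8 in the authors' deposited table, with 4 to 6 when leaving out 1 library. Col22a1 lost its call in 8 alternatives, among them RPKM columns (limma adjusted p = 0.0527), no mean trend (0.0926) and leaving out both control 3 and cKO 4 (0.0991). Bmp1 lost its call in 11 and Fermt2 in 14. A replicate block called Col4a3 (adjusted p = 0.0331), Lama2 (0.037) and Lamb1 (0.0419) as well, and an offset of 10 called Col4a3 (0.0483). Without control 3 and cKO 4, the shift of Col6a1 was -2.41 against Col6a2, -3.37 against Col6a3, -2.73 against Col1a1, -3.0 against Col1a2 and -2.94 against Col3a1, each with an exact permutation adjusted p of 0.12, where 3 against 3 cannot go below 0.1 before adjustment. Same-numbered replicates correlated at 0.058, 0.132, -0.047 and -0.487, and cKO 1 with control 4 at 0.618. The removed factor can alter such correlations, so they do not settle whether the numbers pair the samples. A replicate block gave 1199 calls over the table, with 4 of the 75 genes rising and 5 falling. Charging a degree of freedom for the removed direction gave 749 calls. Scaling moved the median of all genes by under 0.01 on the log2 scale. The 25 genes with a mean under 50 are the least precise.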
